A study of Rattus norvegicus with 12 samples.

Results

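The 10 genes below, which are known for their part in axon injury and regrowth of sensory neurons, are Ecel1, Gpr151, Csf1, Flrt3, Atf3, Jun, Sox11, Smad1, Gap43 and Sprr1a, and they were followed in the dorsal root ganglia of rats given a chemotherapy drug. The genes were taken by symbol from the gene table of each library, and all 10 were found among the 20152 genes listed in at least 1 of the 12 libraries. Dorsal root ganglia hold the cell bodies of the sensory neurons that reach skin, muscle and viscera, with the glia, blood vessels, connective tissue and immune cells around them. Total RNA of frozen ganglia was sequenced in 4 paclitaxel libraries, 4 oxaliplatin libraries and 4 vehicle libraries. Paclitaxel was given intraperitoneally at 2.0 mg/kg from a DMSO stock diluted in saline, and oxaliplatin at 2.4 mg/kg in a glucose solution, both to bring on peripheral neuropathic pain. A single vehicle group is labelled, so the solvent of at least 1 drug cannot be told apart from the drug itself. The strain, age, number of doses and time of tissue collection are not given in the sources used here, nor whether each library came from its own animal, so the p-values below measure only the spread between libraries, which may be technical.

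Paclitaxel stabilises microtubules, and oxaliplatin is a platinum compound that binds DNA; both are known to damage sensory nerves. When a peripheral axon is cut, a sensory neuron is known to switch on a set of transcription factors, among them Atf3, Jun, Sox11 and Smad1. With them come proteins of the growing axon such as Gap43 and Sprr1a, the membrane metallopeptidase Ecel1, the orphan receptor Gpr151, the adhesion protein Flrt3 and the cytokine Csf1. Jun and Atf3 are leucine zipper proteins that can bind AP-1 sites as dimers, Jun is a target of the kinases DLK and JNK, and Smad1 carries signals from BMP receptors to the nucleus.

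Promoter sequence from RefSeq (build GRCr8) was at hand for 5 of the 10 genes (Ecel1, Sox11, Sprr1a, Smad1 and Flrt3), and for these the 250 bases before the annotated start site were read. Those of Sprr1a, Ecel1 and Sox11 are shown because these 3 genes had the largest log2 differences between the drugs; capitals mark motif matches, and each sequence runs 5′ to 3′ along the gene's own strand. The intervals are chr2:180752626-180752875 for Sprr1a, chr9:95274573-95274822 for Ecel1 and chr6:49738795-49739044 for Sox11, each on the minus strand.
Sprr1a: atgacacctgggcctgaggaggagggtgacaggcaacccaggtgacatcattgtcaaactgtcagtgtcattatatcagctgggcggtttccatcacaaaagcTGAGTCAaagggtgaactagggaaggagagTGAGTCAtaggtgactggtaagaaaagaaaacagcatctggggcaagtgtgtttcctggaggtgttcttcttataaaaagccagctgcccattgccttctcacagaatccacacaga
Ecel1: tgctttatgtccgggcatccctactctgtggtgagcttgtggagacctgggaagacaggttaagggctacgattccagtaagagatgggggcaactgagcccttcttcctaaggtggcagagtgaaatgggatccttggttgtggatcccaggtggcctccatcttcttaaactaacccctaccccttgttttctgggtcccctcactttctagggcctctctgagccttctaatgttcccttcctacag
Sox11: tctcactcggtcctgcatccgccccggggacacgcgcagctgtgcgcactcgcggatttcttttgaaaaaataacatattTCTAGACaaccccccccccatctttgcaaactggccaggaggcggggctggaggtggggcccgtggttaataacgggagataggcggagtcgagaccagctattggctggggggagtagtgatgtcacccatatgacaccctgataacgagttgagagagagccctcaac
Searched on both strands were the AP-1 motif TGANTCA, the CRE core TGACGT and the SMAD element GTCTAGA, of which the first and second start with the same letters but cannot be met by the same bases. The Sprr1a promoter held 2 AP-1 matches, TGAGTCA at -147 to -141 and again at -117 to -111 from the start site. Of 33469 rat promoter windows of that length, 6.34% held at least 1 AP-1 match and 0.311% held 2 or more. The Sox11 promoter held 1 SMAD element match at -170 to -164, read as TCTAGAC on the gene's strand, a motif found in 1.86% of windows. No match to these letters was found in the Ecel1, Smad1 and Flrt3 windows, and the CRE core, present in 6.95% of all windows, was found in none of the 5. The Smad1 window was richest in G and C at 64.8%, against 56.8% for Sox11, 52.4% for Ecel1, 52.0% for Flrt3, 48.4% for Sprr1a and a median of 51.2% over all windows. A match is a description of the letters only.

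Each library held 17008728 to 17615736 estimated counts over 17987 to 18215 listed genes. The labelled tissue was checked against its markers: all 14 neuron markers, 5 satellite glia markers and 8 Schwann cell markers were present. In these bulk libraries, fewer cells of a type and less RNA per cell cannot be told apart. A neuron marker score, the mean log2 level of the 14 neuron markers relative to the vehicle mean, was 0.36, 0.20, 0.27 and 0.03 in the paclitaxel libraries, -0.16, -0.22, -0.22 and 0.08 in the oxaliplatin libraries, and -0.04, -0.10, 0.03 and 0.11 in the vehicle libraries. Erythroid markers summed to 586 to 1633 CPM (counts scaled to library size) in paclitaxel libraries, 2796 to 9491 CPM in oxaliplatin libraries and 1314 to 2728 CPM in vehicle libraries. Between the drugs, edgeR called 7 of 8 erythroid, 5 of 6 B cell, 4 of 5 adipocyte, 4 of 6 fibroblast, 3 of 7 endothelial and 4 of 10 macrophage markers higher under oxaliplatin. Of all tested genes 6.6% were called higher there. EdgeR called 0 of 8 Schwann cell, 0 of 5 satellite glia and 0 of 8 neutrophil markers in that comparison.

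In vehicle ganglia the genes spanned a wide range of levels, compared between genes per length as FPKM. Gap43, a phosphoprotein of the growth cone, was the most abundant at 194 ± 22.4 FPKM (SD, n = 4), higher than 97.2% of the genes tested. Jun followed at 28.5 ± 2.25 FPKM and Smad1 at 10.7 ± 0.277 FPKM, and neither overlapped its neighbours in the order. Csf1 at 6.47 ± 0.963 FPKM, Flrt3 at 5.43 ± 0.374 FPKM and Atf3 at 5.20 ± 0.914 FPKM overlapped one another in neighbouring pairs. Sox11 at 1.17 ± 0.473 FPKM, Ecel1 at 0.943 ± 0.317 FPKM and Gpr151 at 0.667 ± 0.251 FPKM did likewise at a lower level. Sprr1a was last, listed in 1 of the 4 vehicle libraries with a mean of 0.0175 FPKM. In paclitaxel ganglia Ecel1 reached 9.82 ± 0.869 FPKM and Sprr1a 1.03 ± 0.489 FPKM. In oxaliplatin ganglia Ecel1 stood at 4.20 ± 1.56 FPKM and Sprr1a was again listed in 1 library.

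Across the members, paclitaxel ganglia carried higher Ecel1 and Atf3 than vehicle ganglia, oxaliplatin ganglia carried higher Ecel1 and Csf1, and the 2 drugs differed from each other in 5 members. Of the 10 members, 9 passed the filter on low counts and were tested with edgeR's quasi-likelihood test over all 15809 genes, with a call at a Benjamini-Hochberg adjusted p under 0.05; Sprr1a did not pass and was counted by itself. Paclitaxel against vehicle had 2 members called higher and 0 called lower, where 0.0822% of all tested genes were called higher and 0.038% lower; at an unadjusted p under 0.05 edgeR had 6 members higher and 0 lower, against 17.1% of all genes in either direction, and DESeq2 called 3 higher and 0 lower, against 1.56%. The paclitaxel libraries were all above the vehicle libraries in 5 members, against 3.86% of all tested genes, and all below them in 0, against 3.11%. The median log2 fold change of the 9 tested members was 0.31, against -0.01 over all genes. Oxaliplatin against vehicle also had 2 members called higher and 0 called lower, against 1.05% and 0.708% of all tested genes, and edgeR's unadjusted p and DESeq2 also gave 2 and 0, against 17.2% and 5.57% of all genes in either direction. It had 2 members wholly above vehicle and 0 wholly below, against 5.54% and 5.78% of genes. The median log2 fold change of the members was 0.03 there, against 0.01 over all genes. Oxaliplatin against paclitaxel had 4 members called lower and 1 called higher, against 4.71% and 6.6% of all tested genes, and a median of -0.41, against 0.0042 over all genes. At an unadjusted edgeR p under 0.05 there were 1 higher and 6 lower, against 29.4% of all genes in either direction, and DESeq2 called 1 and 6, against 17.7%. The 5 members called by edgeR did not overlap between the drugs, 4 lower and 1 higher, against 6.1% and 9.16% of all tested genes. Both drug comparisons share the vehicle libraries, so the direct comparison is the test of whether the drug effects differed. The members were chosen with earlier results of these libraries known. Member counts above the share of all genes are therefore no independent support.

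**Figure D1:**
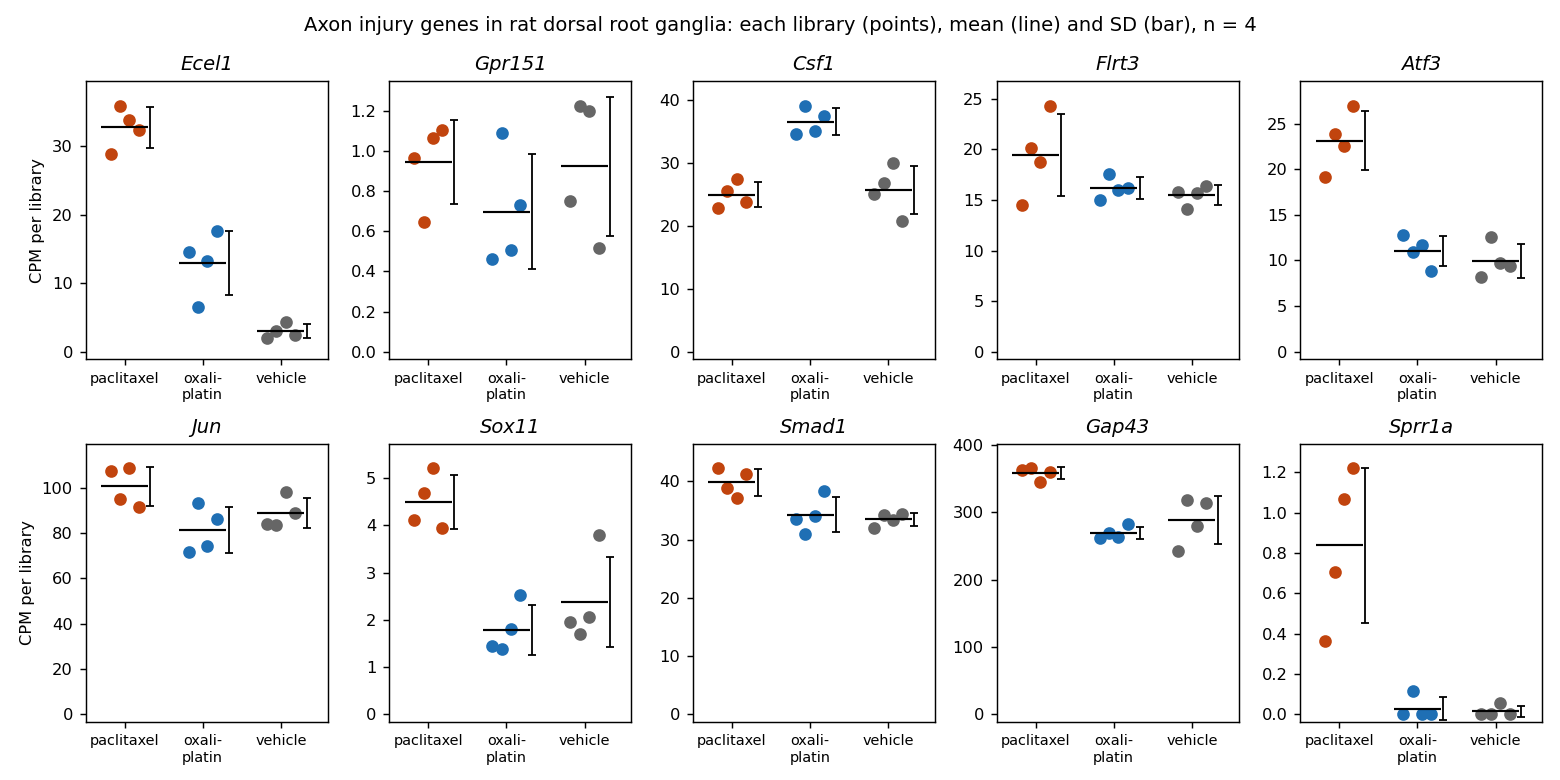
CPM (vertical axes, linear from 0) of each of the 10 genes in every paclitaxel, oxaliplatin and vehicle library; points are libraries, lines group means and side bars the SD over 4 libraries. Ecel1 falls into 3 separate bands with paclitaxel highest, Atf3, Sox11, Gap43 and Smad1 lie above vehicle in all 4 paclitaxel libraries, and Csf1 lies above vehicle in all 4 oxaliplatin libraries.

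Among the surface and secreted proteins, Ecel1, a membrane metallopeptidase of the neprilysin family that is known to be induced by nerve injury, moved most. Ecel1 had 28.9, 36.0, 33.8 and 32.5 CPM in the paclitaxel libraries, 14.6, 6.55, 13.3 and 17.6 CPM in the oxaliplatin libraries, and 2.06, 2.98, 4.41 and 2.47 CPM in the vehicle libraries. The 3 groups did not overlap, with every paclitaxel library above every oxaliplatin library and every oxaliplatin library above every vehicle library. Ecel1 rose 10.96-fold under paclitaxel (log2 fold change 3.45 ± 0.28, SE; edgeR, Benjamini-Hochberg adjusted p = 0.000152), the mean being 32.8 ± 2.96 CPM against 2.98 ± 1.02 CPM in vehicle (SD, n = 4 each). It rose 4.35-fold under oxaliplatin (log2 fold change 2.12 ± 0.28; edgeR adjusted p = 0.00254), where the mean was 13.0 ± 4.67 CPM. Set directly against paclitaxel, the oxaliplatin level was lower by a log2 fold change of -1.33 ± 0.24 (edgeR adjusted p = 0.00783). Both rises over vehicle were called under all 19 alternative settings. With the neuron marker score as a covariate the direct difference was -1.02 and was no longer called (edgeR adjusted p = 0.222).

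Csf1, a cytokine that injured sensory neurons are known to release and whose receptor Csf1r sits on macrophages and microglia, was higher under oxaliplatin than in either other group. Csf1 had 22.9, 25.5, 27.4 and 23.8 CPM in the paclitaxel libraries, 34.5, 39.1, 35.0 and 37.5 CPM in the oxaliplatin libraries, and 25.1, 26.8, 30.04 and 20.8 CPM in the vehicle libraries. All 4 oxaliplatin libraries lay above all others, while paclitaxel and vehicle libraries overlapped. Csf1 rose 1.42-fold under oxaliplatin (log2 fold change 0.51 ± 0.11; edgeR adjusted p = 0.0345), and oxaliplatin exceeded paclitaxel by 0.55 ± 0.11 (edgeR adjusted p = 0.00955). Under paclitaxel the log2 fold change was -0.04 with a 95% interval of -0.27 to 0.19 (edgeR adjusted p = 0.842). The call over vehicle depended on single libraries: leaving out vehicle 1, 2 or 4, paclitaxel 2 or any single oxaliplatin library left log2 fold changes of 0.42 to 0.54 with edgeR adjusted p of 0.0550 to 0.101. With the neuron marker score as a covariate the difference between the drugs was 0.51 and was not called (edgeR adjusted p = 0.166). Of 6 fibroblast markers, 5 had a positive log2 fold change in oxaliplatin against vehicle and none was at 0, and their sum was 3249 to 4033 CPM in oxaliplatin libraries and 2472 to 3515 CPM in vehicle libraries. Of 7 endothelial markers, 6 had a positive one and none was at 0, with sums of 175 to 205 CPM in oxaliplatin libraries and 142 to 188 CPM in vehicle libraries. Of all tested genes 51.7% were positive there. Also mostly positive were the erythroid (8 of 8), B cell (6 of 6), Schwann cell (8 of 8) and adipocyte markers (4 of 5). Mostly negative were the neuron (13 of 14), satellite glia (4 of 5), macrophage (7 of 10) and neutrophil markers (8 of 8). EdgeR called 2 of the 5 adipocyte markers higher, against 1.05% of all genes, and 0 of any other set. The part of these cell types in the Csf1 result was not tested.

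Flrt3, a transmembrane adhesion protein with leucine-rich repeats, had 14.5, 20.2, 18.8 and 24.3 CPM in the paclitaxel libraries, 15.0, 17.6, 16.0 and 16.2 CPM in the oxaliplatin libraries, and 15.8, 14.1, 15.7 and 16.4 CPM in the vehicle libraries. The paclitaxel libraries other than paclitaxel 1 stood above every vehicle library, and the log2 fold change of 0.33 (95% interval 0.05 to 0.61) did not pass (edgeR adjusted p = 0.252). Gpr151, an orphan G protein-coupled receptor of sensory neurons, was low everywhere, at 0.645 to 1.104 CPM in paclitaxel libraries, 0.462 to 1.09 CPM in oxaliplatin libraries and 0.517 to 1.23 CPM in vehicle libraries. Its groups overlapped, and the 95% intervals of its log2 fold change ran from -0.71 to 0.78 for paclitaxel and from -1.16 to 0.36 for oxaliplatin against vehicle, wide enough to hold a change of either sign.

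**Figure D2:**
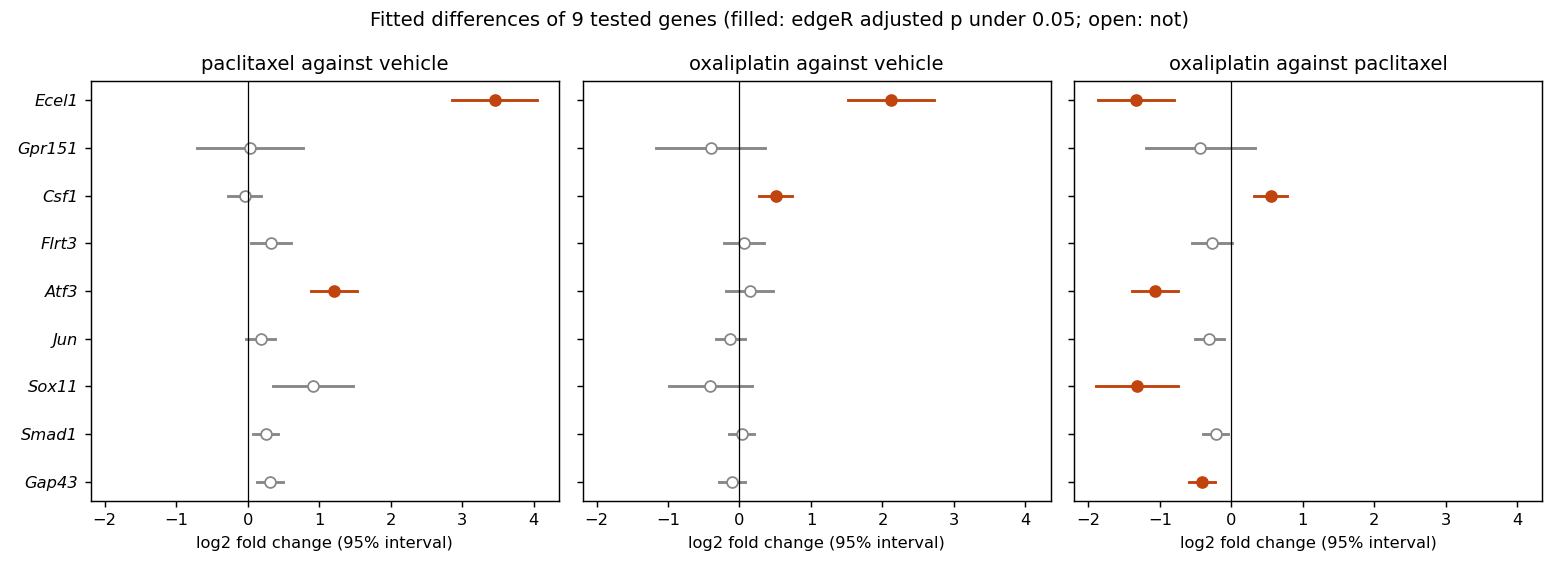
Log2 fold change with 95% interval (horizontal axis) of the 9 tested genes in paclitaxel against vehicle, oxaliplatin against vehicle and oxaliplatin against paclitaxel; filled points passed an edgeR adjusted p of 0.05. Ecel1 lies farthest from 0 against vehicle in both drugs, and in the direct comparison 8 of 9 genes lie below 0, with Csf1 above it.

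Of the transcription factors, Atf3, a stress-induced leucine zipper protein, rose under paclitaxel. It was not silent in vehicle ganglia, where its FPKM was above that of 39.1% of the genes tested. Atf3 had 19.1, 23.8, 22.6 and 27.0 CPM in the paclitaxel libraries, 12.8, 10.97, 11.7 and 8.85 CPM in the oxaliplatin libraries, and 8.22, 12.6, 9.70 and 9.44 CPM in the vehicle libraries. Every paclitaxel library was above every other library, and the oxaliplatin libraries overlapped those of vehicle. The rise under paclitaxel was 2.31-fold (log2 fold change 1.21 ± 0.15; edgeR adjusted p = 0.00323). Under oxaliplatin the log2 fold change was 0.15 with a 95% interval of -0.18 to 0.47 (edgeR adjusted p = 0.677), and oxaliplatin was below paclitaxel by -1.06 ± 0.15 (edgeR adjusted p = 0.00235). The estimated counts of Atf3 were not whole in 11 of 12 libraries and those of Smad1 in 12 of 12, which happens where reads are split among genes, so both levels are uncertain. Those of Ecel1 were not whole in 6 of 12 libraries and those of Gap43 in 1, a lesser uncertainty of the same kind, and those of the other 6 members were whole.

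Sox11, a SoxC factor needed for axon regrowth, had 4.11, 4.69, 5.21 and 3.95 CPM in the paclitaxel libraries, 1.44, 1.38, 1.81 and 2.53 CPM in the oxaliplatin libraries, and 1.96, 1.70, 2.06 and 3.79 CPM in the vehicle libraries. The paclitaxel libraries were all above both other groups, vehicle 4 coming closest. Against vehicle the log2 fold change of 0.92 ± 0.26 did not pass (edgeR adjusted p = 0.203) unless paclitaxel 4 was left out, when it was 0.97 with an adjusted p of 0.0471. Leaving out paclitaxel 4 raised the genes called in that comparison from 19 to 1631, so the call is not particular to Sox11. Oxaliplatin was below paclitaxel by -1.32 ± 0.27 (edgeR adjusted p = 0.0108), and its log2 fold change against vehicle was -0.41 with a 95% interval of -0.99 to 0.18. With the neuron marker score as a covariate the difference between the drugs was -0.64 and was not called (edgeR adjusted p = 0.377).

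Smad1, the transducer of BMP signals, had 42.2, 38.9, 37.1 and 41.2 CPM in the paclitaxel libraries, 33.6, 31.0, 34.1 and 38.3 CPM in the oxaliplatin libraries, and 31.9, 34.3, 33.4 and 34.3 CPM in the vehicle libraries. The paclitaxel libraries were above all vehicle libraries, yet the log2 fold change of 0.25 ± 0.08 did not pass (edgeR adjusted p = 0.212). Jun, the AP-1 subunit downstream of JNK, had 107, 94.98, 109 and 91.6 CPM in the paclitaxel libraries, 71.9, 93.1, 74.2 and 86.3 CPM in the oxaliplatin libraries, and 84.2, 83.8, 98.2 and 89.0 CPM in the vehicle libraries. Its groups overlapped. The log2 fold change of Jun was 0.18 (95% interval -0.03 to 0.39) under paclitaxel and -0.13 (-0.33 to 0.08) under oxaliplatin, and the difference between the drugs, -0.31 ± 0.10, missed the threshold (edgeR adjusted p = 0.0559). The difference between the drugs was called for Jun without paclitaxel 4 (-0.35, edgeR adjusted p = 0.0261), without oxaliplatin 2 (-0.38, 0.0434) or without oxaliplatin 4 (-0.34, 0.0494), and with DESeq2 (-0.32, 0.0175) or RLE scaling (-0.32, 0.0467). For Smad1 it was -0.22 ± 0.08 (edgeR adjusted p = 0.0907), and was called without oxaliplatin 4 (-0.28, 0.0359) and with DESeq2 (-0.24, 0.0381). Over all genes, edgeR called 3463 between the drugs without paclitaxel 4 and DESeq2 called 2795, against 1788 in edgeR with all libraries.

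Of the proteins of the growing axon, Gap43 had 363, 366, 346 and 359.9 CPM in the paclitaxel libraries, 262, 269, 264 and 283 CPM in the oxaliplatin libraries, and 242, 318, 280.4 and 314 CPM in the vehicle libraries. All paclitaxel libraries were above all others and lay close together, while the oxaliplatin libraries fell within the vehicle range. The log2 fold change under paclitaxel, 0.31 ± 0.09, was not called (edgeR adjusted p = 0.203), but was called with DESeq2 (0.32, adjusted p = 0.0279) and in edgeR without paclitaxel 4 (0.31, adjusted p = 0.0481). Over all genes these settings called 247 and 1631 in that comparison, against 19 in edgeR with all libraries. Oxaliplatin was below paclitaxel by -0.41 ± 0.09 (edgeR adjusted p = 0.0120), a difference of -0.36 that was not called with the neuron marker score as a covariate (edgeR adjusted p = 0.179).

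Sprr1a, a small proline-rich protein known from regenerating axons and from skin, was found almost only in the paclitaxel libraries. It had 6, 12, 18 and 21 estimated counts in the paclitaxel libraries, 2 in oxaliplatin 2 and 0 in the other oxaliplatin libraries, and 1 in vehicle 3 and 0 in the other vehicle libraries. The 4 paclitaxel libraries were all above the other 8. Pooled, 57 counts under paclitaxel against 1 in vehicle gave a depth-scaled ratio of 58.4, with a 95% counting interval of 10.1 to 2345 that covers counting error only. A two-sided exact permutation test over the 4 against 4 libraries gave p = 0.0286, the smallest these groups allow, and 0.0429 after Benjamini-Hochberg adjustment over the 3 comparisons. Groups that do not overlap always give this p. The adjustment covers this gene only, so 0.0429 cannot be set beside the adjusted p of the other members. Sprr1a was also chosen with earlier results of these libraries known, so its p is no independent support. Oxaliplatin against vehicle, 2 counts against 1, had a ratio of 1.97 with an interval of 0.103 to 116 (exact permutation p = 1). Oxaliplatin against paclitaxel had a ratio of 0.0338 with an interval of 0.0040 to 0.128 (exact permutation p = 0.0286, adjusted 0.0429).

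**Figure D3:**
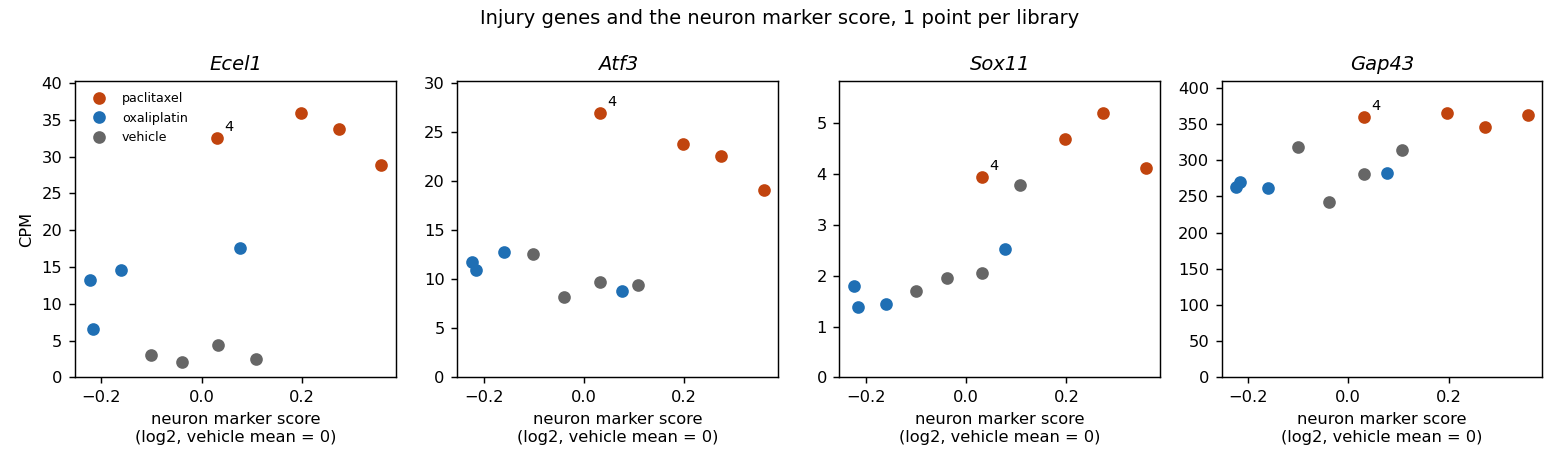
CPM of Ecel1, Atf3, Sox11 and Gap43 (vertical axes) against the neuron marker score (horizontal axis, log2 relative to the vehicle mean), 1 point per library with paclitaxel 4 marked. In every panel the paclitaxel libraries lie above all vehicle libraries, for Sox11 by little between paclitaxel 4 and vehicle 4. Paclitaxel 4 has the lowest score of the paclitaxel libraries, 0.03, inside the vehicle range. It is a single library, and the part of the neuronal share in these levels was not tested.

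All 14 neuron markers had a positive log2 fold change under paclitaxel, with a median of 0.27. EdgeR and DESeq2 called 0 of them, and 8 had an unadjusted edgeR p under 0.05, against 17.1% of all genes in either direction. Under oxaliplatin 13 of 14 had a negative log2 fold change, with a median of -0.11. Between the drugs all 14 were lower under oxaliplatin, 5 of them called, against 4.71% of all genes. Their median was -0.36, beside -0.41 for Gap43, -0.31 for Jun and -0.22 for Smad1. With the score as a covariate Atf3 remained called in paclitaxel against vehicle and in the direct comparison, and Ecel1 in both comparisons against vehicle. The score itself differed with the drug, at 0.03 to 0.36 in paclitaxel libraries and -0.22 to 0.08 in oxaliplatin libraries. The covariate therefore cannot tell the drug apart from the neuronal share. It also changed the errors, and not in 1 direction. Between the drugs the SE of Ecel1 was 0.24 without it and 0.39 with it. That of Mapk8ip2 was 0.13 without the covariate and 0.10 with it. A call lost or kept beside it is no verdict on the neuronal share, whose part in the results was not tested. Summed macrophage markers ran the other way under paclitaxel, at 71.4 to 134 CPM in paclitaxel libraries, 167 to 217 CPM in oxaliplatin libraries and 149 to 259 CPM in vehicle libraries, and their part in the results was not tested.

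A list of 28 other genes known from axon injury, 25 of them tested, was read in the same fits. Against vehicle, edgeR called 2 higher under paclitaxel, Gal and Ankrd1, and 0 lower, against 0.0822% and 0.038% of all genes, with 18 of 25 positive and a median log2 fold change of 0.19. At an unadjusted edgeR p under 0.05, 9 were higher and 1 lower, against 17.1% of all genes in either direction, and DESeq2 called 6 higher and 1 lower, against 1.56%. Gal, which encodes the neuropeptide galanin, had 29.6, 40.2, 26.1 and 32.1 CPM in the paclitaxel libraries, 7.51, 4.14, 8.64 and 6.07 CPM in the oxaliplatin libraries, and 5.26, 9.06, 10.1 and 9.18 CPM in the vehicle libraries. The paclitaxel libraries stood apart from both other groups, and Gal rose by a log2 fold change of 1.93 ± 0.23 (edgeR adjusted p = 0.00240; 1.98 with an adjusted p of 0.0570 beside the neuron marker covariate). Ankrd1, a stress-induced ankyrin repeat protein, averaged 3.11 ± 1.45 CPM in paclitaxel libraries, 0.370 ± 0.108 CPM in oxaliplatin libraries and 0.332 ± 0.202 CPM in vehicle libraries (SD, n = 4 each). Its log2 fold change was 3.20 ± 0.44 under paclitaxel (edgeR adjusted p = 0.00760). That value rested on 212 estimated counts in the paclitaxel libraries together and 23 in the vehicle libraries. The list was drawn up with earlier results of these libraries known.

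Under oxaliplatin the same list had 1 gene called higher and 2 called lower against vehicle by edgeR, against 1.05% and 0.708% of all genes, with 9 of 25 positive and a median of -0.19. At an unadjusted edgeR p under 0.05, 3 were higher and 7 lower, against 17.2% of all genes in either direction, and DESeq2 called 2 higher and 5 lower, against 5.57%. Tubb6, a class V beta-tubulin, rose by 0.62 ± 0.12 (edgeR adjusted p = 0.0231), to 33.5 ± 4.94 CPM in oxaliplatin libraries against 21.8 ± 2.37 CPM in vehicle libraries; its counts were not whole in any library and its level is uncertain. Plaur, the urokinase receptor, fell by 0.69 on the log2 scale (SE 0.12; edgeR adjusted p = 0.0117), with 15.5 ± 2.42 CPM in oxaliplatin libraries and 24.96 ± 2.82 CPM in vehicle libraries. Gadd45a, a stress and DNA damage response gene, fell by 0.41 (SE 0.10; edgeR adjusted p = 0.0490), with 19.1 ± 1.29 CPM in oxaliplatin libraries and 25.4 ± 2.52 CPM in vehicle libraries. Set directly against paclitaxel, oxaliplatin had 11 of the 25 called lower, Gal, Ankrd1, Nts, Gadd45a, Hspb1, Stmn4, Gfra1, Arg1, Stat3, Plaur and Bdnf, and 1 called higher, Tubb6, against 4.71% and 6.6% of all genes. Gal was lower by -2.28 ± 0.23 (edgeR adjusted p = 0.000298), Ankrd1 by -3.05 ± 0.44 (0.00246) and Stmn4, a stathmin-like microtubule regulator, by -0.77 ± 0.10 (0.00152). Against vehicle, the oxaliplatin call of Gadd45a was lost without any 1 library other than paclitaxel 4 (edgeR adjusted p of 0.0538 to 0.140), that of Tubb6 without vehicle 1, 2 or 4 or oxaliplatin 1 or 2 (0.0531 to 0.0752), and that of Plaur without vehicle 4 (-0.61, 0.0577). Between the drugs, Tubb6 was also lost without paclitaxel 1, 2 or 3 or oxaliplatin 1 or 2 (edgeR adjusted p of 0.0615 to 0.0997), and with the neuron marker covariate both Tubb6 (0.32, 0.409) and Plaur (-0.73, 0.0902) were lost.

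**Figure D4:**
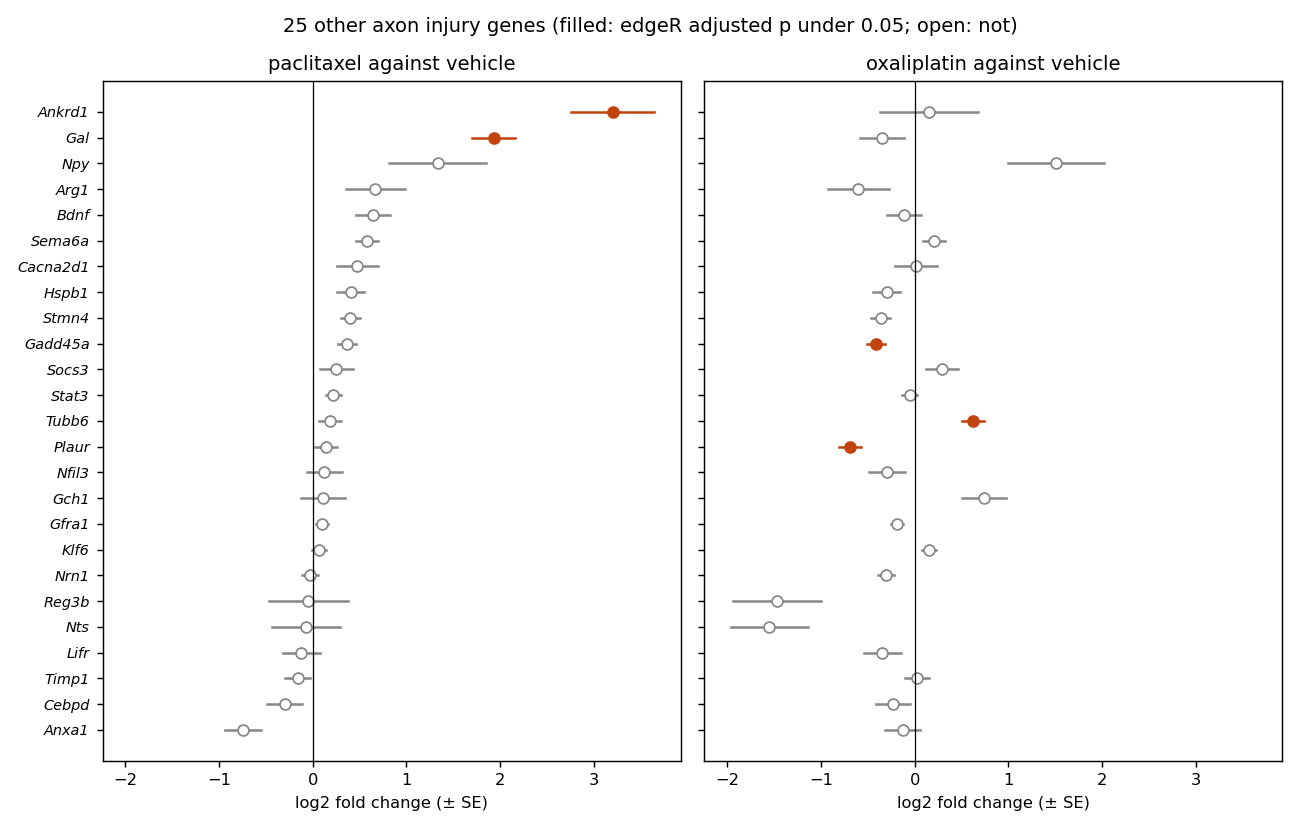
Log2 fold change with SE (horizontal axis) of the 25 tested genes of the wider axon injury list under paclitaxel and under oxaliplatin, each against vehicle, ordered by the paclitaxel value; filled points passed an edgeR adjusted p of 0.05. Ankrd1 at 3.20 and Gal at 1.93 are the filled points under paclitaxel, and Tubb6 at 0.62, Plaur at -0.69 and Gadd45a at -0.41 those under oxaliplatin.

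Few genes of the pathways around the members passed the test against vehicle. Of 11 tested leucine zipper partners of Jun and Atf3, 0 were called under paclitaxel by edgeR or DESeq2 (1 at an unadjusted edgeR p under 0.05, against 17.1% of all genes). Under oxaliplatin 1 was called higher, against 1.05% of all genes: Ddit3, which encodes the stress factor CHOP. Ddit3 had 57.5 ± 12.3 CPM in oxaliplatin libraries and 32.2 ± 3.57 CPM in vehicle libraries, a log2 fold change of 0.84 ± 0.15 (edgeR adjusted p = 0.0186); its counts were not whole in any library. Between the drugs, oxaliplatin was higher for Ddit3 by 0.56 ± 0.15 (edgeR adjusted p = 0.0319) and for the AP-1 subunit gene Fosb by 1.45 ± 0.35 (0.0222). None of 10 DLK and JNK pathway genes was called against vehicle by edgeR with all 12 libraries under either drug, with medians of 0.16 under paclitaxel and -0.14 under oxaliplatin. At an unadjusted edgeR p under 0.05, 2 of the 10 were higher under paclitaxel and 3 lower under oxaliplatin, against 17.1% and 17.2% of all genes, and DESeq2 called 0 and 1, against 1.56% and 5.57%. All 10 were lower under oxaliplatin than under paclitaxel, with a median of -0.26. All 14 neuron markers were lower there too, with a median of -0.36. Of the 10, 2 were called, against 4.71% of all tested genes called lower. They were the scaffold gene Mapk8ip2 (-0.52 ± 0.13, edgeR adjusted p = 0.0225) and the JNK gene Mapk9 (-0.32 ± 0.10, edgeR adjusted p = 0.0488). These calls depended on single libraries: that of Ddit3 against vehicle was lost without vehicle 1 or 4 (edgeR adjusted p of 0.0572 and 0.0752), and between the drugs without paclitaxel 2 or 3 or oxaliplatin 1 (0.0750 to 0.0967). Between the drugs Fosb was lost without paclitaxel 2 or 3 or oxaliplatin 2 (edgeR adjusted p of 0.0631 to 0.0716), Mapk8ip2 without paclitaxel 1, 2 or 3 or oxaliplatin 2 or 3 (0.0542 to 0.0709), and Mapk9 without any 1 library other than paclitaxel 4 or oxaliplatin 4 (at most 0.149). With the neuron marker covariate the differences between the drugs were 0.89 for Ddit3 (edgeR adjusted p = 0.09995), 1.54 for Fosb (0.226), 0.0103 for Mapk8ip2 (0.971) and -0.0905 for Mapk9 (0.766). Under paclitaxel Mapk8ip2 had 0.33 ± 0.13 and was called without paclitaxel 4 (0.45, edgeR adjusted p = 0.0271). That fit called 1631 genes, against 19 with all libraries.

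Of 14 BMP and SMAD pathway genes, edgeR called 0 against vehicle under either drug, with medians of -0.14 under paclitaxel and 0.10 under oxaliplatin. At an unadjusted edgeR p under 0.05, 1 was higher and 3 lower under paclitaxel and 3 were higher under oxaliplatin, against the same 17.1% and 17.2% of all genes. DESeq2 called 0 and 1, against 1.56% and 5.57%. Between the drugs 2 were called higher under oxaliplatin, against 6.6% of all tested genes. These were the ligand Bmp4 (1.08 ± 0.26, edgeR adjusted p = 0.0242) and Smad5 (0.26 ± 0.07, edgeR adjusted p = 0.0373), while Smad1 itself was not called. Bmp4 was lost without paclitaxel 1, 2 or 3 or oxaliplatin 2 or 3 (edgeR adjusted p of 0.0638 to 0.0712), and Smad5 without vehicle 1 or 3, paclitaxel 1, 2 or 3, or oxaliplatin 2 or 3 (0.0509 to 0.132). Both were lost with the neuron marker covariate, Bmp4 at 0.55 (edgeR adjusted p = 0.533) and Smad5 at 0.0897 (0.677). Neither SoxC relative of Sox11 was called in any comparison by edgeR or DESeq2, and Sox12 had the smaller p, with 0.36 ± 0.16 under paclitaxel (edgeR adjusted p = 0.274). Of 6 growth cone relatives of Gap43, 0 were called against vehicle by edgeR or DESeq2. At an unadjusted edgeR p under 0.05 there was 1 for paclitaxel and 1 for oxaliplatin, against 17.1% and 17.2% of all genes. Of the 6, 1 was called lower under oxaliplatin than under paclitaxel, against 4.71% of all genes. It was Stmn2, a neuronal microtubule regulator (-0.45 ± 0.09, edgeR adjusted p = 0.0107). With the neuron marker covariate it had -0.33 (edgeR adjusted p = 0.208). Of 9 FLRT family members and partners, 0 were called against vehicle by edgeR or DESeq2. At an unadjusted edgeR p under 0.05 there were 1 for paclitaxel and 0 for oxaliplatin, against 17.1% and 17.2% of all genes. Of the 9, 1 was called lower under oxaliplatin than under paclitaxel, against 4.71%: the netrin receptor gene Unc5d (-0.54 ± 0.16, edgeR adjusted p = 0.0406). Its call was lost without vehicle 1 or 2, paclitaxel 1, 2 or 3, or oxaliplatin 2 or 3 (edgeR adjusted p of 0.0513 to 0.129). It was also lost with the neuron marker covariate (-0.32, 0.553). None of 5 neprilysin family relatives of Ecel1 was called in any comparison by edgeR, with 0 at an unadjusted p under 0.05 against vehicle. In the direct comparison 2 had such a p, 1 higher and 1 lower, against 29.4% of all genes. The smallest p was that of Ece2 in the direct comparison (-0.33 ± 0.12; edgeR adjusted p = 0.0916), called with DESeq2 (-0.34, 0.0478). Neither of 2 tested galanin receptors was called or had an unadjusted p under 0.05 in any comparison, with -0.32 ± 0.21 for Galr1 under paclitaxel (edgeR adjusted p = 0.410).

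Csf1r, the receptor for Csf1, had 21.4, 34.6, 38.0 and 38.9 CPM in the paclitaxel libraries, 48.6, 53.6, 56.0 and 47.9 CPM in the oxaliplatin libraries, and 66.5, 78.4, 83.7 and 47.8 CPM in the vehicle libraries. Every paclitaxel library was below every other library. The log2 fold change under paclitaxel of -1.06 ± 0.19 missed the threshold in edgeR (adjusted p = 0.0514) and was called with DESeq2 (-1.05, adjusted p = 3.52e-05). In edgeR oxaliplatin was above paclitaxel by 0.63 ± 0.19 (adjusted p = 0.0437). Without vehicle 4 or paclitaxel 4 the paclitaxel value was called (-1.20 and -1.14, edgeR adjusted p = 0.0146 and 0.0226). The fit without paclitaxel 4 called 1631 genes in that comparison, against 19 with all libraries. The difference between the drugs was lost without any 1 library other than vehicle 2, 3 or 4 or paclitaxel 4 (edgeR adjusted p of 0.0524 to 0.118). With the neuron marker covariate that difference was 0.16 (edgeR adjusted p = 0.801). Against vehicle the oxaliplatin value was -0.42 ± 0.18 (edgeR adjusted p = 0.255), so ligand and receptor had fitted changes of opposite sign there, of which that of the receptor was not called. The 10 macrophage markers, from cells that carry Csf1r, all had a negative log2 fold change under paclitaxel, with a median of -0.94 and none at 0. Of the 10, 1 was called lower by edgeR, against 0.038% of all genes. DESeq2 called 6 lower, against 1.56% of all genes in either direction. All 10 had an unadjusted edgeR p under 0.05, against 17.1% of all genes in either direction. Their part in the Csf1r values was not tested.

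For Ecel1 and Atf3, the members called with a fold of at least 2 against vehicle, the genes with the most similar course over the 12 libraries were sought by the root mean square difference of log2 CPM relative to the vehicle mean. Genes picked in this way rise with their member by choice. Their p-values below come from the same libraries and are no independent support. Nearest to Ecel1, whose own root mean square distance from the vehicle mean was 2.35, was Fam150b, called Alkal2 in RefSeq, a ligand of the ALK receptor, at a difference of 0.735. Fam150b averaged 26.2 ± 9.40 CPM in paclitaxel libraries, 11.2 ± 5.24 CPM in oxaliplatin libraries and 3.69 ± 0.985 CPM in vehicle libraries, rising by 2.83 ± 0.36 under paclitaxel (edgeR adjusted p = 0.00753) and by 1.599 ± 0.36 under oxaliplatin (adjusted p = 0.0463). The oxaliplatin call was lost without any 1 library other than paclitaxel 2 or 4 or oxaliplatin 3 (edgeR adjusted p of 0.0582 to 0.147), and that under paclitaxel with the neuron marker covariate (2.28, 0.251). Serpina3n at 1.37 and the pseudogene LOC498750 at 1.46 came next and were called in no comparison by edgeR with all 12 libraries. LOC498750 had 6.28 ± 2.17 CPM in oxaliplatin libraries and 4.61 ± 1.41 CPM in paclitaxel libraries, the opposite order to Ecel1. Serpina3n varied widely in paclitaxel libraries, at 17.6 ± 19.4 CPM. Serpina3n was called under paclitaxel without paclitaxel 4 (5.27, edgeR adjusted p = 0.0487) and with DESeq2 (5.09, adjusted p = 0.00135). Over all genes these settings called 1631 and 247 in that comparison, against 19 in edgeR with all libraries. Nearest to Atf3, with a distance of 0.729 from the vehicle mean, was LOC100909521 at 0.335, with 7.30 ± 1.22 CPM in paclitaxel libraries, 2.85 ± 0.479 CPM in oxaliplatin libraries and 2.54 ± 0.812 CPM in vehicle libraries. It rose by 1.51 ± 0.22 under paclitaxel (edgeR adjusted p = 0.0102), a call lost without vehicle 1 or paclitaxel 2 or 3 (0.0504 to 0.0562) and with the neuron marker covariate (1.45, 0.227), and its counts were not whole in any library. Tdrd12 at 0.394 and Sdc1, a heparan sulfate proteoglycan, at 0.440 followed, neither called against vehicle (edgeR adjusted p = 0.204 and 0.132 under paclitaxel); Sdc1 was called without paclitaxel 4 (0.66, edgeR adjusted p = 0.0316) and with DESeq2 (0.67, 0.00667).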

How the data were processed

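Per the labels' protocols, RNA was extracted from frozen ganglia with Trizol and libraries were made from total RNA with a BGI kit. CASAVA 1.4 and Bowtie2 are named in the submitters' processing notes. Not given in the sources used here are the genome build and the counting tool. Each deposited table gives, for each gene, an estimated count and an FPKM value made by the authors, with a transcript length; 30.3 to 31.5% of estimated counts were not whole. Estimated counts were rounded and analysed with edgeR 4.0.16 in R 4.3.3: filterByExpr by group (15809 genes tested, 4343 set aside, at least 99.9% of counts kept), TMM scaling, and a robust quasi-likelihood fit of 3 group means over 12 libraries with 9 residual degrees of freedom. Calls used a Benjamini-Hochberg adjusted p under 0.05 over all tested genes. CPM are counts scaled by the TMM-adjusted library size, and marker scores used a prior count of 2. FPKM served for levels between genes. Depth was even. Among the members, counting error limits mainly Sprr1a and Gpr151. In the wider injury list it also limits Ankrd1, with 23 estimated counts in the vehicle libraries together, and Nts, with 19 in the oxaliplatin libraries.

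Sprr1a was compared by an exact permutation test over 70 splits. The genes to be named were all 10 members; Gal; for each pathway list and comparison up to 3 called genes by smallest p, or 1 gene by smallest p where a list had no call; and the 3 nearest courses to each member called with a fold of at least 2. Plotted genes of the wider injury list and the 11 called lower between the drugs were listed in full. Members and lists were chosen with earlier results of these data known. Of 20152 genes, 18549 (92.0%) matched the RefSeq table by ID. Promoters came from RefSeq, build GRCr8, and were cut to the bases before the start site. Alternatives were DESeq2 1.42.0, edgeR with RLE scaling, no filter, limma 3.58.1 on log2(FPKM + 1) and log2(FPKM + 0.1), the replicate number as a block, the neuron marker score as a covariate, and each library left out. The edgeR fit was tested on simulated data. No pair of libraries of a group agreed within sampling noise.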

Additional observations from a re-analysis of the deposited data

Results flagged for a closer look

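A difference between the drugs was found for 5 members by the direct comparison of oxaliplatin with paclitaxel in edgeR, which tests the difference of both drug effects. The log2 difference was -1.33 for Ecel1, -1.06 for Atf3, -1.32 for Sox11 and -0.41 for Gap43, lower under oxaliplatin in 4 of 4 libraries against all 4 paclitaxel libraries, and 0.55 for Csf1, higher in 4 of 4. One library stood far from the rest of its group, for a gene with few reads there. Ankrd1 had 23 estimated counts in the 4 vehicle libraries together. It had 0.636 CPM in vehicle 1, against 0.229 to 0.234 CPM in the other 3 vehicle libraries. Of 84 groups checked in this way 1 stood out, where chance gives about 1 in 20.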

How the results depend on the processing

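Ecel1 against vehicle under both drugs, and Atf3 under paclitaxel and between the drugs, were called in all 19 alternatives. Counts of genes called moved more. For paclitaxel against vehicle, 19 genes became 247 with DESeq2 (121 higher, 126 lower), 6 with the neuron marker covariate, and 10 to 1631 with 1 library left out, the most without paclitaxel 4. For oxaliplatin against vehicle, 278 became 881 with DESeq2, 72 with the replicate block, 1382 with the neuron marker covariate, and 49 (without vehicle 4) to 357 with 1 library left out. For oxaliplatin against paclitaxel, 1788 became 2795, 986 and 68, and 571 (without oxaliplatin 3) to 3463 (without paclitaxel 4). With 1 library left out, members called were 2 to 4 under paclitaxel and 1 or 2 under oxaliplatin, against 2 with all libraries, and 1 under the replicate block with oxaliplatin, where Csf1 had 0.52 (edgeR adjusted p = 0.0566). Between the drugs they were 5 with all libraries, 5 to 8 with 1 left out, and 1, Atf3, with the neuron marker covariate. Sprr1a enters some of these counts because it passed the low-count filter there, which it can do only through the paclitaxel libraries, so its calls are no support. Without Sprr1a the counts were 2 under paclitaxel but for 4 without paclitaxel 4, and 5 to 7 between the drugs. The 4 came in the fit that called 1631 of 15950 genes, where 19 of 15809 were called with all libraries. The 7 came without oxaliplatin 4. There 5149 of 15936 genes had an unadjusted edgeR p under 0.05, against 4654 of 15809 with all libraries. Member counts thus rose where the counts over all genes rose. The cause was not tested.

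Signs turned only for fitted values that were not called in the fit with 3 group means, or for Mapk8ip2 between the drugs. With the neuron marker covariate these were Mapk8ip2 (-0.0164 under paclitaxel, 0.0103 between the drugs), Atf3 (-0.0395), Flrt3 (-0.0387), Ankrd1 (-0.29), Galr1 (0.0425) and Tdrd12 (-0.0916) under oxaliplatin, and Sox12 (0.25) and LOC498750 (-0.28) between the drugs. With 1 library left out, values spanned 0 for Csf1 (-0.13 to 0.0426), Gpr151 (-0.16 to 0.20) and Ece2 (-0.0152 to 0.16) under paclitaxel, and for Smad1 (-0.0339 to 0.0785), Galr1 (-0.23 to 0.10) and Tdrd12 (-0.13 to 0.29) under oxaliplatin. The same replicate number did not pair libraries of different groups: deviations correlated at -0.232 to 0.157 over 12 pairs, 1 of them over 0.1, and 2 libraries correlated best with their own number, a hint from the data only. The replicate block also lost the calls of Ankrd1 under paclitaxel (3.10, edgeR adjusted p = 0.0553), of Tubb6, Gadd45a, Ddit3 and Fam150b under oxaliplatin, and of Tubb6, Ddit3, Mapk8ip2, Mapk9, Smad5, Unc5d and Fam150b between the drugs. Of the members, Gpr151 and Sprr1a lie near the limit of depth. In the wider injury list, Ankrd1 in vehicle libraries and Nts in oxaliplatin libraries do too.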
